A study of Mus musculus with 4 samples.

Results

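The first 30 Mb of assembled mouse chromosome 5, from 3 to 33 Mb in mm10, carried an unusually dense run of KMT9alpha peaks in tumour organoid chromatin. All peaks of the 3 deposited lists whose midpoint lay there were taken: 2013 for KMT9alpha, 1971 for KMT9beta and 2275 for H4K12me1, together 6259 of the 176784 peaks on assembled chromosomes. The stretch was chosen by the number of KMT9alpha peaks outside promoters per 1 Mb bin, which exceeded a model of that number in this run of bins. KMT9alpha density there is therefore given as a description and supports nothing. KMT9beta and H4K12me1 come from separate libraries that the choice did not use. The comparison throughout is the rest of the chromosome from 33 to 150 Mb, with 1546, 6523 and 4191 peaks. A further 121 peaks lie beyond 150 Mb and enter neither region.

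The organoids are three-dimensional epithelial cultures from a colorectal tumour induced in a mouse with azoxymethane, a carcinogen, and dextran sulfate sodium, which injures the colon lining. All libraries are from 1 clone (clone 3) at passage 14. Chromatin was immunoprecipitated with antibodies to KMT9alpha, KMT9beta and H4K12me1, with 1 library each, and an Input library is not analysed here. The genotype field reads NA, and of the treatments named, 1 µM tamoxifen and vehicle, neither is tied to a library. No value below has a replicate check. Read depth is unknown, local read density in the Input was not measured, and intervals (exact Clopper-Pearson, 95%) cover counting error only. Of 9 epithelial marker genes, 8 had a KMT9alpha promoter peak, against 0 of 5 leukocyte, 1 of 5 fibroblast and 1 of 3 endothelial markers. Over all protein-coding genes the share was 54.2%. KMT9beta was at 8 of 9 epithelial, 0 of 5 leukocyte, 3 of 5 fibroblast and 3 of 3 endothelial marker promoters, and H4K12me1 at 6, 1, 1 and 1. Krt20, a keratin of differentiated colon cells, had no peak of any library.

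KMT9 is a methyltransferase made of a catalytic subunit, KMT9alpha (the product of N6amt1), and a partner that stabilises it, KMT9beta (the product of Trmt112). It places a single methyl group on lysine 12 of histone H4, giving H4K12me1, a mark described mainly around gene starts. KMT9beta also binds other methyltransferases, so a KMT9beta peak need not mark the whole enzyme. A promoter here is 1 kb either side of a start of a protein-coding gene in GENCODE M21. A body peak overlaps no promoter and has its midpoint inside the annotated gene. Covered shares and lengths of bodies are over the whole annotated gene, with promoter sequence and promoter peaks included. Scores are the authors' own value per peak and are compared only within a list. The lowest score deposited was 50.01 for KMT9alpha and 50 for both other lists.

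The sequences below show the range of sites in the stretch, from a CpG-rich promoter to introns with few CpG. Each is 300 bases of the plus strand of GRCm38.p6, the assembly behind mm10, written 5′ to 3′ with every CG dinucleotide in capitals. CG reads the same on both strands. The first is the run just before the annotated start of Cdk6 (chr5:3341185-3341484). The second is the centre of the highest-scoring KMT9alpha peak outside promoters, which lies upstream of Kmt2e in an intron of a long non-coding RNA gene (chr5:23418167-23418466). The others are centres of the highest-scoring KMT9alpha body peaks of Cdk6 (chr5:3436825-3437124), Prkag2 (chr5:24952949-24953248) and Dpp6 (chr5:27711236-27711535) whose window touches no annotated exon.
Cdk6 promoter: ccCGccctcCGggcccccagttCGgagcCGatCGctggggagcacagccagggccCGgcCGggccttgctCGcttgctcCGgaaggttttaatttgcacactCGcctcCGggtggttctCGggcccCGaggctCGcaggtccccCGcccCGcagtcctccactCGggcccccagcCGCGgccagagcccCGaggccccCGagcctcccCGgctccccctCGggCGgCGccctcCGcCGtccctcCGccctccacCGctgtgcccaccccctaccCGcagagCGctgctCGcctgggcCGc
Kmt2e upstream: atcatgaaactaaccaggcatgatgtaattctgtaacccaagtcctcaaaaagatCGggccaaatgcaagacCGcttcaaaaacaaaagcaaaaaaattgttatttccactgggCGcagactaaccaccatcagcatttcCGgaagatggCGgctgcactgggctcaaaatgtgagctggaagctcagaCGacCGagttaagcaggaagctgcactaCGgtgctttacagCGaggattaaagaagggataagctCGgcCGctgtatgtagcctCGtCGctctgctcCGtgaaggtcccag
Cdk6 intron: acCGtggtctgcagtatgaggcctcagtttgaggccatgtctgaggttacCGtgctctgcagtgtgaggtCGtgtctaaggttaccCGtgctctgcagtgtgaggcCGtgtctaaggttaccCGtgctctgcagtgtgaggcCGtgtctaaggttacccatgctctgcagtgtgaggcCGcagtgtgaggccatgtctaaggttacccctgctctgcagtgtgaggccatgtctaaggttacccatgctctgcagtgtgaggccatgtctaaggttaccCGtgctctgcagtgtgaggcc
Prkag2 intron: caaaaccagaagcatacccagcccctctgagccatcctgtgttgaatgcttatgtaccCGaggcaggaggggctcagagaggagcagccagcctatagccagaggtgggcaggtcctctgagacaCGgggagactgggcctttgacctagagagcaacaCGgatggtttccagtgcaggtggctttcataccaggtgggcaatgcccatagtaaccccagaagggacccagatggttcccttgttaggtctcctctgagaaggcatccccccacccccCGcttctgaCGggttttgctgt
Dpp6 intron: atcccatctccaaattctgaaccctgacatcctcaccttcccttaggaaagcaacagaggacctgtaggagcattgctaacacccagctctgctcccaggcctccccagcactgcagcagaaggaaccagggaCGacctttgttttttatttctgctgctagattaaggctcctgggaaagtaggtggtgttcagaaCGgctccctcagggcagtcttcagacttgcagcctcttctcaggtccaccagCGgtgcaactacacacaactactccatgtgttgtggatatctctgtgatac

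They hold 33, 14, 9, 5 and 3 CG dinucleotides in the order shown. Among 98514 windows of 300 bases that tile the stretch, 0.126% hold 33 or more, 0.889% hold 14 or more, 2.35% hold 9 or more, 10.9% hold 5 or more and 31.0% hold 3 or more. Of the 1800 KMT9alpha peaks outside promoters in the stretch, 39.0% had at least the 5 CG of the Prkag2 window in their central 300 bases. The Cdk6 intron window repeats itself: shifted by 36 bases, 71.6% of its letters match, against 31.9% to 41.3% at the best shift in the other windows. At the Cdk6 promoter the scores were 3100 for KMT9alpha, 1746 for KMT9beta and 1066 for H4K12me1. At the Cdk6 intron peak they were 534, 940 and 1022, so KMT9alpha and KMT9beta scored lower there than at the promoter and H4K12me1 about the same. The Prkag2 intron peak scored 728, 884 and 661. In the Dpp6 intron the KMT9alpha peak scored 596 inside an H4K12me1 peak of 1019, with no KMT9beta peak. The Kmt2e upstream peak scored 3129 for KMT9alpha, 187 for KMT9beta and 66.9 for H4K12me1.

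KMT9alpha peaks stood at 68.1 per Mb of sequence without assembly gaps in the stretch (29.6 Mb) and at 13.3 per Mb in the rest (116.6 Mb). Outside promoters, the class that chose the stretch, the densities were 60.9 and 7.68 per Mb, a ratio of 7.93. At promoters the ratio was 1.29 (interval 1.10 to 1.51). H4K12me1, not used in the choice, had 77.0 against 35.9 peaks per Mb, a ratio of 2.14 (2.03 to 2.25), with 2.35 outside promoters and 1.13 (0.963 to 1.33) at promoters. KMT9beta was nearly level, with 66.7 against 55.9 per Mb and a ratio of 1.19 (1.13 to 1.25). Its promoter peaks were fewer per Mb than in the rest (ratio 0.788, 0.672 to 0.919), with a ratio of 0.962 to the autosomes other than 5 and 19. Promoter ratios per Mb take no account of gene number, 222 in the stretch and 1023 in the rest. By gene, KMT9beta was at 74.8% and 75.3% of promoters. Its promoter peaks were wider in the stretch, with medians of 1997 and 1380 bp. Without the first and last 3 Mb of the stretch, the KMT9beta ratio was 1.05, with an interval (0.990 to 1.11) that includes 1. Set against the autosomes other than 5 and 19, the ratios were 7.31, 1.92 and 3.49 for KMT9alpha, KMT9beta and H4K12me1, and 13.0, 2.16 and 4.02 outside promoters.

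**Figure D1:**
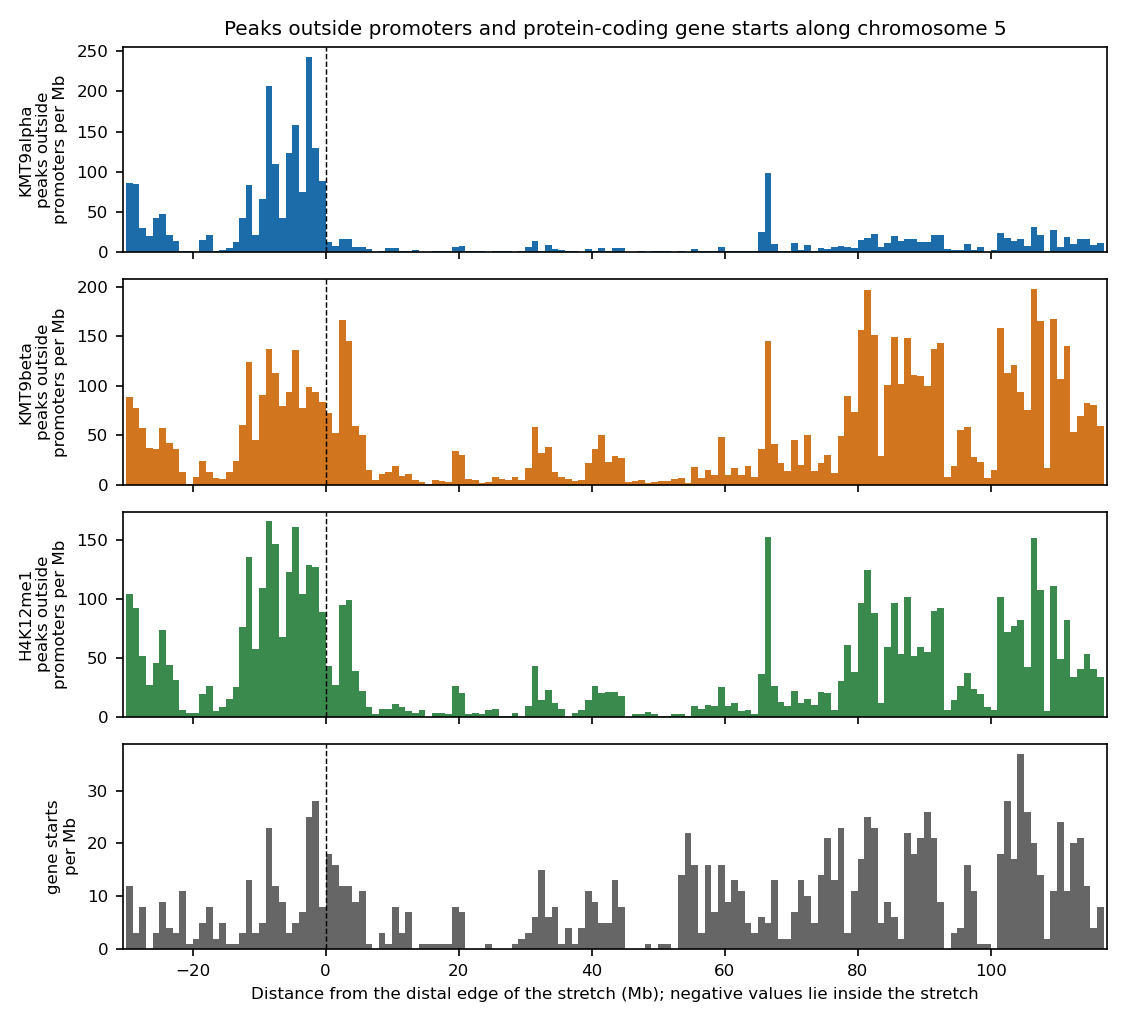
Peaks outside promoters per 1 Mb bin of each library, and protein-coding gene starts per bin, along chromosome 5; the x axis is the distance in Mb from the 33 Mb end of the stretch, marked by the dashed line. KMT9alpha reaches 243 per bin inside the stretch and 99 outside it, while KMT9beta reaches 137 inside and 198 outside.

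The peaks also differed in extent. KMT9beta peaks had a median width of 1539 bp in the stretch and 994 bp in the rest, and H4K12me1 peaks 1160 and 618 bp. KMT9alpha widths were 736 and 756 bp, about the same. Peaks of 3000 bp or more made up 17.2% of KMT9beta peaks in the stretch and 2.15% in the rest. For H4K12me1 the shares were 9.85% and 0.0954%, that is 224 peaks against 4. Of the stretch, 14.3% was covered by KMT9beta peaks (6.59% in the rest), 12.7% by H4K12me1 (2.59%) and 6.77% by KMT9alpha (1.34%). Covered sequence was thus 2.17, 4.92 and 5.04 times as dense for KMT9beta, H4K12me1 and KMT9alpha. Broad peaks of the partners held several KMT9alpha peaks in many cases, a description that follows the KMT9alpha count used to choose the stretch. Of 339 KMT9beta peaks of 3000 bp or more, 183 (54.0%) overlapped at least 2 KMT9alpha peaks, against 21.4% of 140 in the rest. Of the 224 broad H4K12me1 peaks, 148 (66.1%) did so.

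The widest peaks lay over gene bodies. A KMT9beta peak of 25896 bp in an intron of Prkag2 (chr5:24955019-24980914) overlapped 12 KMT9alpha and 3 H4K12me1 peaks, yet scored only 61.6. A KMT9beta peak of 21904 bp in Otof held 8 KMT9alpha peaks and no H4K12me1 peak. The widest H4K12me1 peak, 24783 bp at Khk (chr5:30911526-30936308), held 8 KMT9alpha peaks and no KMT9beta peak. Khk encodes ketohexokinase, the first enzyme of fructose breakdown. When all 3 lists were merged into loci, the widest was 26593 bp over Kcnk3, a potassium channel gene, with 10 KMT9alpha, 2 KMT9beta and 3 H4K12me1 peaks. Merged loci of 5000 bp or more numbered 169 in the stretch and 24 in the rest, although the rest is larger.

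Scores ran in opposite directions in the lists. The median KMT9alpha score was 120 in the stretch and 278 in the rest, and 62.5% of the stretch's KMT9alpha peaks scored under 150, against 7.89% in the rest. The stretch, 1.12% of the assembled sequence, held 765 of the 1065 KMT9alpha peaks with a score under 100 in the whole list (71.8%). It held 1.79% of those scoring 400 or more. H4K12me1 showed the reverse: 2.81% of its peaks under 100 lay in the stretch, and 153 of 550 peaks at 400 or more (27.8%, 24.1 to 31.8). For KMT9beta the shares of the same bands were 1.82% and 6.52%. Restricted to peaks at or above the median score of the list (318), KMT9alpha had a density ratio of 1.47 for all peaks and 3.36 outside promoters, smaller than over all its peaks. For H4K12me1 the same restriction gave 2.67 and 2.96. A score of 3100 or more was given to 86 KMT9alpha peaks of the stretch (4.27%), against 19.2% in the rest.

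**Figure D2:**
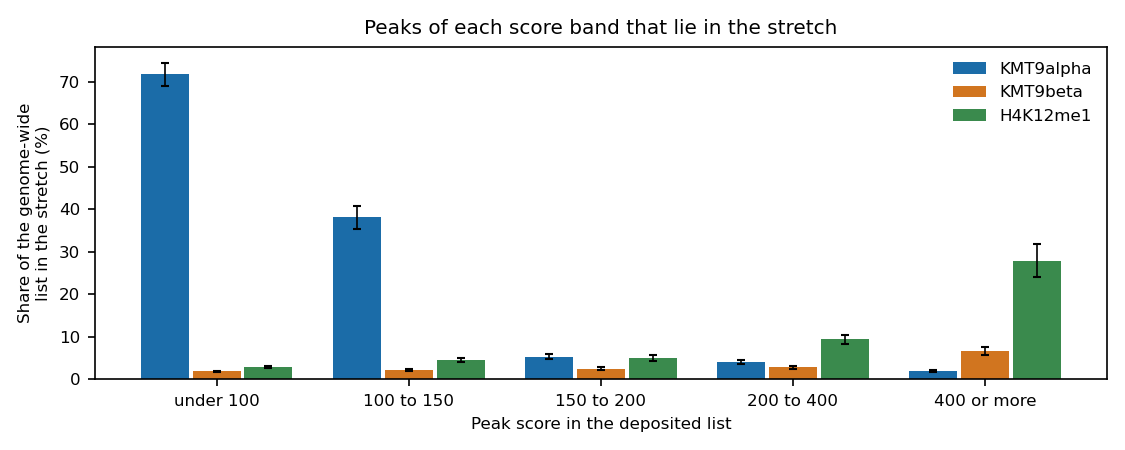
Share of each genome-wide list that lies in the stretch, by score band, with exact 95% intervals; scores are comparable only within a list. The KMT9alpha share is 71.8% under 100 and 1.79% at 400 or more, and the H4K12me1 share 2.81% and 27.8%.

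By midpoint, 988 KMT9alpha peaks of the stretch (49.1%) lay in introns, 627 (31.1%) between genes, 98 (4.87%) in coding exons and 185 (9.19%) in promoters. In the rest promoters led with 40.7%, followed by introns with 29.7%. Per Mb of the whole region, not of the class itself, KMT9alpha peaks in introns, between genes, in coding exons and in 3′ UTRs were 8.49, 7.48, 6.91 and 7.13 times as many as in the rest. On the same scale KMT9beta peaks in coding exons, in introns and between genes were 0.491, 1.28 and 1.47 times as many, and H4K12me1 peaks 1.06, 2.42 and 2.65 times. For promoters by midpoint the ratios were 1.16, 0.662 and 0.913 for KMT9alpha, KMT9beta and H4K12me1. Densities per Mb of gene body and of sequence between genes are given with the gene bodies. Counting any overlap with a promoter, 10.6%, 9.89% and 8.88% of KMT9alpha, KMT9beta and H4K12me1 peaks were promoter peaks, against 42.0%, 15.0% and 16.8% in the rest. KMT9alpha peaks outside promoters chose the stretch, so its KMT9alpha promoter share and class values are a description only. The KMT9beta difference of -5.1 percentage points was -16.4 when each list was cut to the same number of highest-scoring peaks.

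Peaks of the stretch were poorer in CpG than those elsewhere on the chromosome. The central 300 bases of KMT9alpha peaks held a median of 4 CG outside promoters and 15 at promoters, against 6 and 27 in the rest. At least 10 CG were found in 9.11% of KMT9alpha peaks outside promoters (25.1% in the rest) and in 58.7% of promoter peaks (87.7%). The windows that tile the regions had a median of 2 CG in both, and 1.81% and 2.98% had 10 or more. Median GC content of KMT9alpha peaks outside promoters was 51.3%, well over the 40.7% of tiled windows in the stretch.

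Of the 2013 KMT9alpha peaks, 1405 (69.8%, 67.7 to 71.8) shared at least 1 base with an H4K12me1 peak, against 47.9% in the rest and 49.9% of the whole list. The difference was 21.9 percentage points (18.6 to 25). With KMT9beta the share was 69.3%, against 73.2% in the rest and 75.2% of the whole list. KMT9beta peaks overlapped H4K12me1 in 69.2% (32.5% in the rest, 33.6% of the list) and H4K12me1 peaks overlapped KMT9beta in 68.0% (55.2% and 56.1%). Shares with KMT9alpha as the partner rise with the KMT9alpha density that chose the stretch, so they are given as a description only: 50.8% of KMT9beta peaks (16.8% in the rest, 20.7% of the list) and 47.1% of H4K12me1 peaks (18.8% and 22.3%). At promoters, KMT9alpha peaks overlapped KMT9beta less often than in the rest, 81.7% against 92.9%, a difference of -11.2 points (-17.2 to -6.10). At 500 bp these shares were 54.9% and 78.9%. With H4K12me1 the promoter shares were 83.1% and 61.8%, but 53.1% and 52.5% with every peak set to 500 bp.

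Outside promoters the KMT9alpha shares were 67.8% with KMT9beta (58.9% in the rest), 68.2% with H4K12me1 (37.8%) and 55.9% with both (31.0%). Introns and intergenic sequence gave similar values, with 67.5% and 67.8% for H4K12me1. Where such a KMT9alpha peak had KMT9beta, it also had the mark in 82.5% of cases (52.7% in the rest), and where it did not, in 38.2% (16.6%). These shares moved with peak width. With every peak set to 500 bp around its midpoint, 34.5% of KMT9alpha peaks outside promoters met KMT9beta, against 44.9% in the rest, so that difference turned from 8.9 to -10.4 percentage points. With H4K12me1 the shares became 39.6% and 33.3%, a difference of 6.3 in place of 30.4. Over all KMT9alpha peaks the H4K12me1 difference became -0.3 points. The KMT9beta peaks kept a large difference at 500 bp, with 52.0% meeting H4K12me1 outside promoters against 22.5%. All shares with H4K12me1 as the partner can rise with its density, which outside promoters was 2.35 times that of the rest. A fixed width does not correct for this, and closer co-occupancy beyond density was not tested. With peaks under the median score dropped and widths as deposited, the KMT9alpha difference with H4K12me1 was 37.7 points over all peaks. That cut kept 265 KMT9alpha peaks in the stretch and 713 in the rest, of which 49.8% and 78.1% were promoter peaks. Base by base, 72.1% of KMT9alpha sequence in the stretch was also under an H4K12me1 peak, against 35.1% in the rest. H4K12me1 peaks covered 12.7% of all sequence in the stretch and 2.59% in the rest, so the higher share is not read as closer sharing.

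**Figure D3:**
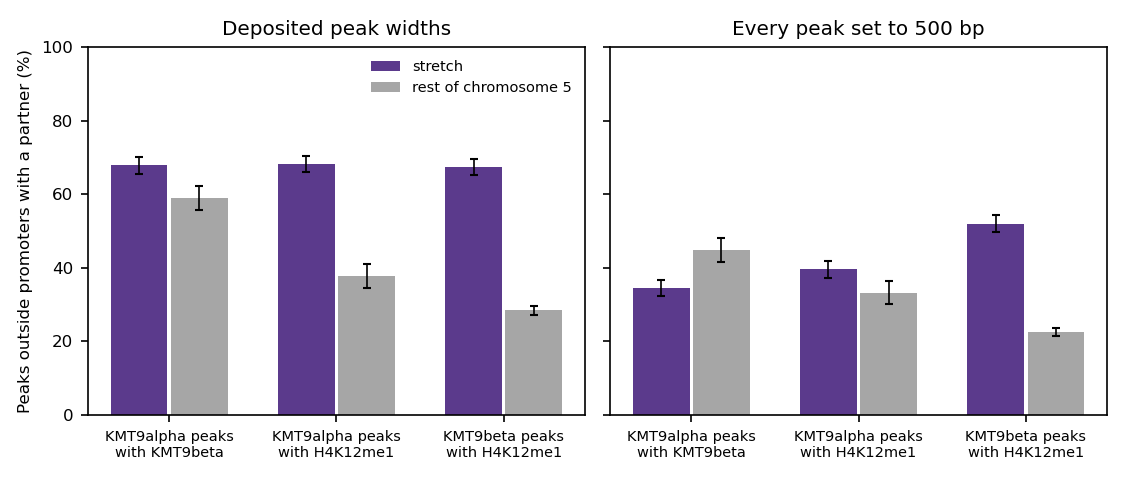
Share of peaks outside promoters that overlap a peak of another library, with exact 95% intervals over peaks, for the stretch and the rest of chromosome 5; left, widths as deposited, right, every peak set to 500 bp. The KMT9alpha with KMT9beta share is higher in the stretch on the left (67.8% against 58.9%) and lower on the right (34.5% against 44.9%).

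The stretch holds 222 protein-coding genes and the rest 1023. A KMT9alpha peak lay at the promoter of 171 of the 222 (77.0%), against 61.9% in the rest and 54.2% of all 21853 genes. KMT9beta was at 166 promoters (74.8%), no more than in the rest (75.3%) but above the 65.1% of all genes. H4K12me1 was also at 166 promoters (74.8%), against 53.0% in the rest and 44.9% of all genes. All 3 met at 144 promoters (64.9%, 58.2 to 71.1), against 42.3% and 35.5%, while 35 genes had none. The difference from the rest was 21.8 points for H4K12me1 and 22.5 for all 3. For H4K12me1 it was 13.7 without the first and last 3 Mb of the stretch, 33.4 when lower-scoring peaks than the list's median were dropped and 35.7 when all lists were cut to equal size. For all 3 it was 15.6 (6.76 to 24.1) without the first and last 3 Mb, and 34.5 with lists of equal size. Both differences can rise with peak width, since a promoter counted on 1 shared base. H4K12me1 promoter peaks had a median width of 1830.5 bp in the stretch and 708 bp in the rest. By midpoint they were 0.913 times as many per Mb as in the rest. A fixed peak width was not tested for genes. Tex47, Sema3a, Hgf, Cd36, Gnat3, Il6 and genes with Gm, Rik or Speer names make up the promoters with none. Of 168 genes with ordinary names 136 (81.0%) had all 3, against 45.2% of 924 such genes in the rest. Only 7 of 45 genes with Gm or Rik names and 1 of 9 Speer genes did. Speer genes are near-identical copies, so reads may be split among them and their values are uncertain.

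A gene was counted when a peak lay at any of its annotated starts, and its score is that of the highest such peak. In 25 of the 144 genes with all 3, among them Prkag2, Dpp6, Magi2, Plb1, Kcnh2 and Slc30a3, the 3 highest peaks shared no common base (17.4%, against 17.1% in the rest). Among the 144, Krtcap3 had the highest KMT9beta score (2606), with 3100 for KMT9alpha and 1574 for H4K12me1. Otof, which encodes the calcium sensor otoferlin of hair cell synapses, followed with 1785 for KMT9beta, 868 for KMT9alpha and 646 for H4K12me1. The next were Cdk6, a kinase that drives cells through G1, with values given above, the potassium channel gene Kcnh2 (2143, 1621 and 964 for KMT9alpha, KMT9beta and H4K12me1) and the homeobox gene En2 (538, 1570 and 978). For H4K12me1 the zinc transporter gene Slc30a3 led with 1879, beside 3228 for KMT9alpha and 385 for KMT9beta. Adgrf3, an adhesion receptor gene, had 1826 with 741 and 659. Atg9b, an autophagy gene, had 1469 with 3100 and 561, and Ucn, which encodes the peptide urocortin, had 1419 with 764 and 1089. The high partner scores at En2, Adgrf3 and Ucn thus went with KMT9alpha scores far under 3100.

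Gene bodies were covered more fully than in the rest by all 3 libraries. A KMT9alpha body peak was present in 154 genes (69.4%), against 25.6% in the rest and 17.8% of all genes; bodies outside promoters are part of what chose the stretch, so nothing is read from this. KMT9beta body peaks were in 55.4% of genes (61.9% in the rest, 47.5% of all genes) and H4K12me1 body peaks in 61.7% (53.9% and 39.7%). Merged bodies made up 49.2% of the stretch, of which 8.70% was covered by KMT9alpha, 16.3% by KMT9beta and 15.1% by H4K12me1, against 2.06%, 10.1% and 3.93% in the rest. Sequence between genes was covered to 4.89%, 12.4% and 10.4%, against 0.806%, 3.99% and 1.59%. Per Mb, KMT9alpha peaks outside promoters stood at 70.1 in bodies and 52.0 between genes. KMT9beta had 61.0 in bodies and 59.2 between genes, against 66.7 and 33.3 in the rest, and H4K12me1 73.9 and 66.5, against 42.5 and 20.5.

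Bodies of genes with a KMT9alpha promoter peak held 78.0 KMT9alpha peaks per Mb outside promoters, and those of the 51 genes without one held 25.4. The ratio was 3.07 (2.34 to 4.10), and 3.36 (2.61 to 4.39) in the rest, where the densities were 13.3 and 3.96. A difference between these ratios was not tested. KMT9alpha body peaks are part of what chose the stretch, so nothing is read from its ratio. From 11 to 20 Mb, where all 3 lists were sparse, only 9 of 36 genes had a KMT9alpha promoter peak, and most of the 36 have Gm, Rik or Speer names. The ratio in the stretch therefore cannot be told apart from position along it. Some small genes lay wholly under peaks. At least 50% of the whole gene was covered in all 3 libraries in 25 genes (11.3%) of the stretch and in 9 (0.880%) of the rest. KMT9alpha coverage enters these counts, so the contrast is a description only. At least 90% was covered in all 3 in 7 genes: Tmub1, E130116L18Rik, Gm5129, Ucn, Zfp513, Gm9970 and Krtcap3. Promoter peaks count here: Ucn and Krtcap3 had 100% covered in each library and 0 body peaks. H4K12me1 taken alone covered at least 90% of 31 genes in the stretch and 3 in the rest.

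Prkag2, which encodes a gamma subunit of the energy sensor AMPK, and Dpp6, which encodes an accessory subunit of neuronal potassium channels, shared the highest number of KMT9alpha body peaks, 81 each. In Prkag2 (238 kb, chr5:24862744-25100642) KMT9beta had 45 and H4K12me1 59 body peaks, and the peaks covered 32.1%, 88.2% and 70.5% of the gene for KMT9alpha, KMT9beta and H4K12me1. Dpp6 is much longer (910 kb) and had 87 and 97 KMT9beta and H4K12me1 peaks, with 8.71%, 22.8% and 21.9% covered. Their promoters differed too: the KMT9alpha promoter score was 3100 at Prkag2 and 187 at Dpp6. Babam2, a subunit of a complex that takes BRCA1 to DNA breaks, had 48, 30 and 46 body peaks for KMT9alpha, KMT9beta and H4K12me1. Otof had 37 KMT9alpha peaks in 94.9 kb, but 11 and 8 of its partners, whose peaks were broad there (68.5% and 45.6% of the gene covered, and 65.0% by KMT9alpha).

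Cdk6 had 28, 24 and 27 body peaks. Magi2, a synaptic scaffold gene of 1478 kb, had 28, 51 and 56, and Cdk14, a kinase gene of 617 kb linked to Wnt receptor phosphorylation, had 24, 48 and 44. In both of these long genes KMT9alpha had fewer peaks than either partner, unlike in Prkag2 and Otof. Adam22, whose product binds the secreted protein LGI1 at synapses, had 24, 20 and 21 although no KMT9alpha peak lay at its promoter. Plb1, the phospholipase B of the intestinal brush border, had 24, 26 and 29. Akap9, which anchors protein kinase A at the Golgi and centrosome, had 21, 16 and 21, and Cib4 also had 21 for KMT9alpha. Among the 34 genes of 100 kb or more, 29 had a KMT9alpha body peak, with a median of 3.45 per 100 kb and 34 in Prkag2. The 113 such genes in the rest had a median of 0.578 and a highest value of 11.3, in Rasgef1b. KMT9alpha body peaks are part of what chose the stretch, so this contrast is a description only. For KMT9beta the medians were closer, 4.36 and 3.80 per 100 kb.

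**Figure D4:**
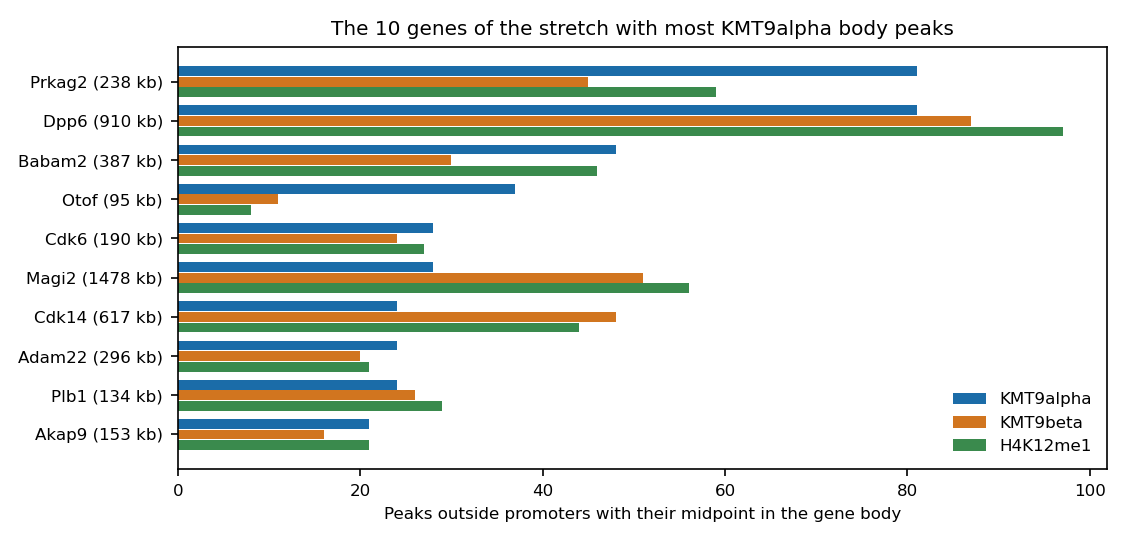
Number of peaks outside promoters with their midpoint in the gene body for the 10 genes of the stretch with most KMT9alpha body peaks, 1 library per colour, gene length in brackets; Cib4 ties with the last and is not drawn. Otof has 37 KMT9alpha peaks against 11 and 8, and Cdk14 24 against 48 and 44.

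The genes of the stretch were also read by function. Over all 222 genes 64.9% had all 3 libraries at the promoter. Among the 168 genes with ordinary names the share was 81.0%. KMT9alpha, KMT9beta and H4K12me1 were at 91.7%, 89.3% and 89.3% of these 168 promoters. The lists below stand beside these shares, and differences from them were not tested. All 10 chromatin and transcription genes had all 3 libraries at the promoter, among them Kmt2e (3100, 1178 and 406 for KMT9alpha, KMT9beta and H4K12me1), a reader of methylated histone H3, and Kmt2c (3100, 1473 and 892), a histone H3 methyltransferase. Of 10 cell cycle, replication and repair genes, all had KMT9alpha, 9 had KMT9beta and 8 had H4K12me1. Dbf4, the activator of the replication kinase Cdc7, had 3100, 603 and 189. Orc5, a subunit of the origin recognition complex, had 3100 for KMT9alpha and 154 for KMT9beta with no H4K12me1 peak, and Cdk5 had 3100 for KMT9alpha and 210 for H4K12me1 with no KMT9beta peak. Paxip1, a DNA damage response gene, had 16 KMT9alpha body peaks. All 3 libraries were at 9 of 10 growth signalling genes, such as the small GTPase gene Rheb (3100, 974 and 224) and the AP-1 family gene Fosl2 (3100, 1202 and 641). They were at 8 of 11 genes of RNA, translation and mitochondrial ribosome.

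Of 13 metabolic genes 9 had all 3. Cad, which starts pyrimidine synthesis, had 3100, 434 and 224 at the promoter, and its body was covered to 73.6%, 39.0% and 96.9%. Hadha and Hadhb, the subunits of the mitochondrial trifunctional protein, share a promoter with 3100, 679 and 289. Cyp51, of cholesterol synthesis, had 3100, 667 and 327. Nos3, the nitric oxide synthase of endothelium, had neither KMT9 subunit at its promoter but an H4K12me1 score of 1732, and 8 KMT9alpha body peaks. Gckr, the glucokinase regulator, lacked KMT9alpha and had 208 for KMT9beta and 74.1 for H4K12me1. All 4 ABC transporters of family B had all 3: Abcb1b, a drug efflux pump, had 2810, 445 and 159, and its neighbour Abcb1a 565, 223 and 126. Of the 3 STEAP metalloreductases, 2 had all 3 and Steap4 lacked H4K12me1.

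Neuronal, developmental and leukocyte or stromal genes are typically restricted to other tissues or states. Of 12 neuronal genes 9 had all 3 at the promoter and 11 had a KMT9alpha body peak, 234 peaks in all. Such a body peak was in 69.4% of all 222 genes of the stretch and in 85.3% of its 34 genes of 100 kb or more. Gene length was not taken into account, and the median was 13 peaks per neuronal gene. Reln, the secreted guide of migrating neurons, had 169, 627 and 713 at the promoter, and Dpysl5 957, 1060 and 1170. Of 7 developmental regulators 5 had all 3. Shh, a morphogen, had 660, 545 and 1125 and Mnx1, a motor neuron homeobox gene, 702, 717 and 757, each lower for KMT9alpha than the 3100 of the Wnt receptor gene Fzd1 (3100, 1492 and 1008). Insig1, a brake on sterol synthesis, had KMT9alpha alone (3100). Of 5 leukocyte and stromal genes 2 had all 3, and 2, Il6 and Cd36, had none. The class 3 semaphorins, secreted axon guidance proteins, had all 3 at 2 of 4 promoters, and none had a KMT9alpha body peak. Sema3c had 3051, 109 and 63.4, and Sema3e 464, 243 and 66.7.

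Peaks were uneven along the stretch. Per 1 Mb bin KMT9alpha ranged from 0 to 276 with a median of 45 over 30 bins, against 0 to 106 with a median of 9 over 117 bins of the rest. KMT9beta ranged from 2 to 160 (median 65, against 28) and H4K12me1 from 3 to 198 (median 66.5, against 18). For KMT9beta no bin of the stretch exceeded the highest of the rest, 238 at 139 to 140 Mb. For KMT9alpha 6 bins did, and for H4K12me1 1 bin did. By covered sequence 8 bins exceeded the highest of the rest for KMT9alpha, 4 for KMT9beta and 6 for H4K12me1. Bins with 20 or more gene starts held a median of 207 KMT9alpha peaks outside promoters in the stretch (3 bins, 130 to 243) and 14.5 in the rest (16 bins, 0 to 32), the measure that chose the stretch and from which nothing is read. KMT9beta in the same bins had medians of 99 and 104, and H4K12me1 129 and 57, at a like median GC content of 47.1% and 47.3%. In bins with 0 to 3 gene starts the medians were 17 and 1 for KMT9alpha, 36 and 6 for KMT9beta and 29 and 3 for H4K12me1. The bins of the stretch were lower in GC, with a median of 40.6% against 43.2%.

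**Figure D5:**
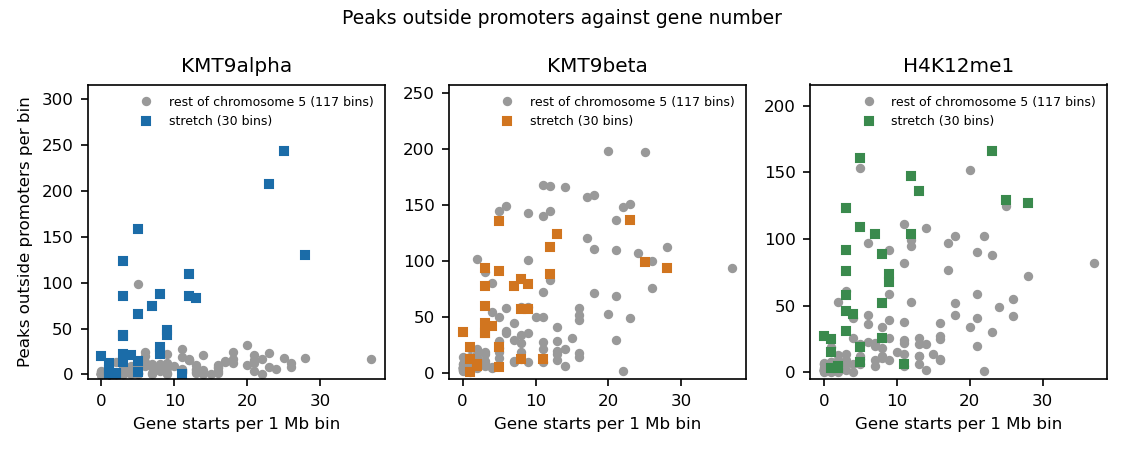
Peaks outside promoters against protein-coding gene starts in bins of 1 Mb, 1 panel per library; squares are the 30 bins of the stretch and grey circles the 117 bins of the rest of chromosome 5. In the 3 bins of the stretch with 20 or more gene starts KMT9alpha, the measure that chose the stretch, has 130 to 243 peaks, and the 16 such bins in the rest have 0 to 32, while KMT9beta values of both regions mix.

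Blocks drawn after the values were seen describe the layout; the third ends with the last 100 kb that held 10 or more KMT9alpha peaks. From 3 to 11 Mb, where Cdk6, Cdk14 and the ABC transporters lie, there were 47.6 KMT9alpha, 58.8 KMT9beta and 63.5 H4K12me1 peaks per Mb. From 11 to 20 Mb, with 4.18 gene starts per Mb, the densities were 8.13, 14.4 and 14.2, and only 9 of 36 genes had a KMT9alpha promoter peak. Most of these 36 genes have Gm, Rik or Speer names. Of the others, Sema3e, Pclo, Sema3c, Gnai1 and Magi2 had such a peak, and Sema3d, Sema3a, Cacna2d1, Hgf, Cd36 and Gnat3 did not. From 20 to 32.4 Mb the densities were 126, 109 and 132, with 13.1%, 27.2% and 24.6% of the sequence covered. H4K12me1 joined 72.4% of KMT9alpha peaks outside promoters in this block, 55.9% in the first and 48.4% in the gene-poor block. Most of the density thus lay from 20 to 32.4 Mb, with a lower block at the start.

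Islands of genes within it were the most heavily covered. The bin from 30 to 31 Mb, with 25 genes from Il6 to Tcf23, had 276 KMT9alpha, 119 KMT9beta and 154 H4K12me1 peaks that covered 43.4%, 56.2% and 59.0% of it. KMT9alpha lay at 23 of its promoters, KMT9beta at 17 and H4K12me1 at 22. Il6, an inflammatory cytokine gene, had none, and Tcf23, a transcription factor gene, had H4K12me1 only (446). Cenpa, the centromere histone H3 variant, had 2876 for KMT9alpha and 116 for KMT9beta without H4K12me1. An assembly gap of 50 kb (chr5:30289672-30339671) lies in this bin. From 24 to 25 Mb, 23 genes from Fam126a to Rheb carried 244, 160 and 198 peaks, and all 23 had H4K12me1 at the promoter, while Nos3 and the acid-sensing channel gene Asic3 lacked KMT9alpha. From 31 to 32 Mb, 28 genes from Slc5a6 to Babam2 carried 164, 122 and 157 peaks. Each library was at 27 of these promoters, and all 3 at 25.

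Long runs without KMT9alpha lay in or next to the gene-poor block. Between neighbouring KMT9alpha peaks, 15 runs of 250 kb or more summed to 7.56 Mb, 25.2% of the stretch, against 94 runs and 51.8% of the rest. This contrast depends on the KMT9alpha density that chose the stretch and is a description only. The longest, 1355 kb (chr5:11458995-12814045), holds Sema3d and 6 genes with Gm or Rik names, and had 8 KMT9beta and 4 H4K12me1 peaks. The next, 1210 kb (chr5:12814681-14025046), holds Sema3a and Speer3, also with 8 and 4. The third, 506 kb (chr5:17575614-18081921), holds Cd36, a fatty acid receptor gene, and Gnat3, the taste G protein gustducin, with 1 and 3. Hgf, which encodes the ligand of the Met receptor, lies in a run of 503 kb. A run of 411 kb includes 395 kb of unsequenced assembly (chr5:15062667-15457666). Sema3a (477 kb), Sema3d (206 kb) and Cd36 (107 kb) were the long genes with no KMT9alpha peak at the promoter or in the body. KMT9beta had 1, 0 and 1 body peaks in them and H4K12me1 0, 1 and 1. GC content of the 3 longest runs was 37.1% to 37.7%.

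Toward its distal end the density stopped short of 33 Mb. In the 100 kb bins from 32 to 32.4 Mb, over Babam2, Fosl2 and Plb1, there were 18, 38, 16 and 13 KMT9alpha peaks, and in the 6 bins from 32.4 to 33 Mb 1, 0, 1, 5, 3 and 1. H4K12me1 had 20, 21, 26 and 16, then 4, 0, 1, 6, 2 and 1, and KMT9beta 17, 16, 18 and 15, then 5, 1, 1, 17, 4 and 2. For KMT9alpha and H4K12me1 the change lies between Plb1 and Ppp1cb, a protein phosphatase gene. KMT9beta also fell there, but was back at 17 peaks from 32.7 to 32.8 Mb. In the last 1 Mb inside the 33 Mb limit there were 96 KMT9alpha peaks with a median score of 133, and in the first 1 Mb beyond it 31 with a median of 298. H4K12me1 had 97 and 62, with median widths of 1228 and 626 bp, and KMT9beta 96 and 93, with 1689 and 1149 bp. The nearest KMT9alpha peak inside the limit scored 188 and the nearest outside scored 3100.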

How the data were processed

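ChIP-seq libraries were sequenced on a HiSeq 2000, per the labels' protocols, which name STAR for mapping to mm10, whereas the submitters' processing notes name Bowtie2. The deposited lists give each peak a position and a score, with names that begin with MACS. The meaning of the authors' score and the caller's version, threshold and control were not given in the sources used here. Peaks on assembled chromosomes were kept, assigned by midpoint to 3 to 33 Mb or 33 to 150 Mb, and called overlapping when they shared 1 bp. BED starts were taken as 0-based. Genes were those of GENCODE M21, with sequence from GRCm38.p6. Densities are per Mb of sequence without N, with exact conditional intervals for ratios and Newcombe intervals for differences of shares. With 1 library per antibody no p-value was computed. Steps were tested on simulated data. Members and lists were chosen with earlier results of these data known. Named genes were those with most KMT9alpha body peaks, the highest partner scores at promoters with all 3, list members, long genes without KMT9alpha, and genes of the longest runs, top peaks and extreme bins. Other settings changed the overlap rule, promoter width, score threshold, peaks per list, comparison, edges, peak width, transcripts and run length. Versions were scipy 1.17.1, numpy 2.4.6, matplotlib 3.10.9 and pandas 2.3.3, under Python 3.11.15.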

Additional observations from a re-analysis of the deposited data

How the results depend on the processing

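Of 93 alternatives over 20 results, 42 left a share or ratio within its counting interval, or gave 18 long runs in place of 15, 49 moved the value and 2 reversed it. Setting every peak to 500 bp reversed the difference for KMT9alpha with H4K12me1 over all peaks (-0.3 percentage points) and for KMT9alpha with KMT9beta outside promoters (-10.4). It moved KMT9alpha with KMT9beta over all peaks to -22.5, KMT9beta with H4K12me1 to 27.8 and 29.6 outside promoters, and KMT9alpha with H4K12me1 outside promoters to 6.3. The cause was not tested.

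Density ratios for KMT9alpha, KMT9beta and H4K12me1 became 1.47, 1.42 and 2.67 at or above the median score, 7.31, 1.92 and 3.49 against other autosomes, and 4.01, 1.05 and 1.88 without the first and last 3 Mb. Outside promoters they became 3.36, 1.61 and 2.96, then 13.02, 2.16 and 4.02, then 6.28, 1.14 and 2.10.

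The promoter share difference moved for KMT9alpha, where it is a description only, to -28.3 (median score) and -39.3 (other autosomes). For KMT9beta it moved to -8.3 (promoters of 2.5 kb), -10.3 (median score), -16.4 (lists of equal size), -9.9 (other autosomes) and -7.0 (without the ends). For H4K12me1 it moved to -10.5 (2.5 kb), -9.7 (same number) and -11.9 (other autosomes).

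At or above the median score, overlap differences moved to 37.7 for KMT9alpha with H4K12me1, 44.3 for the same outside promoters, and 41.5 and 43.6 for KMT9beta with H4K12me1 over all peaks and outside promoters. With lists of equal size they moved to 27.3 for KMT9alpha with H4K12me1, and to 46.5 and 49.7 for KMT9beta with H4K12me1. Against other autosomes KMT9alpha with KMT9beta moved to -7.0 and KMT9beta with H4K12me1 outside promoters to 41.8. Overlap of 50% of the shorter peak moved KMT9alpha with KMT9beta outside promoters to 12.9.

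The H4K12me1 promoter gene difference moved to 33.4 (median score), 35.7 (same number), 29.0 (other autosomes) and 13.7 (without the ends), and that of all 3 to 34.5 (same number). The ratio of body densities in the stretch moved to 4.18 at the median score, and runs of 100 kb or more numbered 40.

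No paired analysis was possible because each antibody has 1 library. Neighbouring peaks are not independent, so intervals are too narrow.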

Other observations

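One bin of the rest of chromosome 5 resembled the stretch. From 99 to 100 Mb, around Rasgef1b, there were 106 KMT9alpha peaks, 99 of them outside promoters, where the median bin of the rest had 9. It was also the highest bin of the rest for H4K12me1 outside promoters, with 153, and for covered sequence, with 8.43% for KMT9alpha and 18.9% for H4K12me1.

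Of 2981 merged loci in the stretch, 374 (12.5%) held KMT9alpha alone, 452 (15.2%) KMT9beta alone, 554 (18.6%) H4K12me1 alone and 798 (26.8%) all 3. Among 8633 loci of the rest these shares were 3.98%, 46.3%, 20.9% and 7.92%. Loci with KMT9alpha rise with the density that chose the stretch, so the shares are a description only. The loci with all 3 had a median width of 2322 bp, against 631 bp with KMT9alpha alone.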
